A study of Mus musculus with 13 samples.

Results

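The 13 right brain hemispheres sequenced at postnatal day 11 fell into 2 classes by the level of Ttr, the gene for transthyretin. The libraries were selected on this measured value alone: the Ttr count was scaled by the library's total to counts per 1000000 counts, and log2(value + 1) was taken. Libraries at 5 or more on this scale were called high-Ttr, and libraries under 2 were called low-Ttr. This gave 8 high-Ttr and 5 low-Ttr libraries of 13, with 0 between the limits. The classes held 2 high-Ttr and 3 low-Ttr libraries of the control genotype, 4 and 1 of nlsYAP5SA mice, and 2 and 1 of C57BL/6 mice.

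Transthyretin carries thyroid hormone and retinol-binding protein. In the brain it is made above all by the epithelium of the choroid plexus, the secretory tissue that hangs into the ventricles, and is released into the cerebrospinal fluid. This epithelium moves ions, bicarbonate and water from blood to ventricle, is sealed by leaky tight junctions, and takes up folate and other nutrients for the brain.

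The RNA came from 3 groups of mice, all on the C57BL/6J background. The control mice were NexCre -/- YAP5SAnls +/-, and so had the nuclear, activated YAP1 transgene but no Cre. The nlsYAP5SA mice were NexCre +/- YAP5SAnls +/-, and expressed the transgene where NEX-Cre had acted, in neuronal precursors of the NEX/NeuroD6 lineage. Mice of both these groups were littermates from 2 matings that the labels do not assign to single animals, and the 3 C57BL/6 mice were age-matched non-littermates without the transgene. The samples exclude the olfactory bulb and the cerebellum. Each library is labelled as its own sample, and no pair of libraries of a genotype was as close as repeat counts of 1 library would be (the smallest chi-square, divided by its degrees of freedom, was 6.38).

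Totals of the estimated counts were between 20871566 and 24392197 in high-Ttr and between 22788250 and 25524349 in low-Ttr libraries. Genes with a count above 0 numbered 22345 to 23238 against 22606 to 23025, and mitochondrial genes took 4.13% to 5.49% against 4.35% to 5.02% of the counts. A single abundant gene, CT010467.1, took 2.91% to 9.56% against 2.44% to 9.74%. None of these ranges set the classes apart. Wisp2, a YAP1/TAZ target gene, was between 12.7 and 15.5 CPM in the 5 nlsYAP5SA libraries and at most 0.417 CPM in the other libraries, so the nlsYAP5SA labels held in both classes. It does not tell control from C57BL/6 libraries. CPM are counts per 1000000, with the library size scaled by edgeR's TMM factors. The sex of the mice is not given in the labels. Y-linked genes were expressed in all 5 low-Ttr libraries and in 4 of the 8 high-Ttr libraries, which leaves sex in part confounded with the Ttr class.

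Ttr chose the libraries, so its levels are a description without a test. In the controls, replicates 1 and 5 were high, at 219 and 128 counts per 1000000, and replicates 2, 3 and 4 were low, at 0.823, 1.22 and 2.23. In nlsYAP5SA mice, replicates 1, 2, 3 and 5 were at 274, 278, 136 and 54.0, while replicate 4 was at 0.763. In C57BL/6 mice, replicate 1 was at 1.49 and replicates 2 and 3 were at 153 and 243. The lowest high-Ttr library, nlsYAP5SA replicate 5, was 24.1 times the highest low-Ttr library, control replicate 4. On the log2 scale of the rule these libraries, the ones just inside and just outside the limits, stood at 5.78 and 1.69, a gap of 4.09. Low-Ttr libraries held 18 to 51 counts of Ttr each, so Ttr was detected in all of them. Ttr lies on chromosome 18 of GRCm38 from 20665280 to 20674321.

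The question put to these libraries was which tissue the high-Ttr hemispheres held more of. Each of 17301 other genes was tested with edgeR's quasi-likelihood test over the 13 libraries, with genotype as a covariate. In bulk tissue, fewer cells of a type and less RNA per cell cannot be told apart. After Benjamini-Hochberg adjustment, 2 genes (0.0116%) were called at 0.05, Kcne2 and Mfrp, both higher in high-Ttr libraries. Both passed the filter on low counts through the high-Ttr libraries alone, with at most 2 and 3 counts in any low-Ttr library, so a difference was built into their being tested, and with at least 10 counts required in every library edgeR called 0 genes. No gene was called lower in the main edgeR fit, where 633 genes (3.66%) reached 0.05 before adjustment, 301 of them lower and 332 higher (1.74% and 1.92%). Without the filter on low counts, edgeR called 5 of 30433 genes higher and 2 lower, Gm21986 and Gm28635. DESeq2's Wald test on the same design called 13 of 17282 genes (0.0752%), 12 higher and 1 lower. Of these, 7 were choroid plexus genes (Kcne2, Cldn2, Folr1, Tmem72, Clic6, Slc4a5 and Aqp1). Mfrp was among the other 6 with Dlk1, Gaa, Galnt16, the pseudogene Rpl17-ps8 and, as the lower gene, Gm21986. The median log2 fold change over all genes was -0.0031, and 48.8% of genes had a higher mean.

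**Figure D1:**
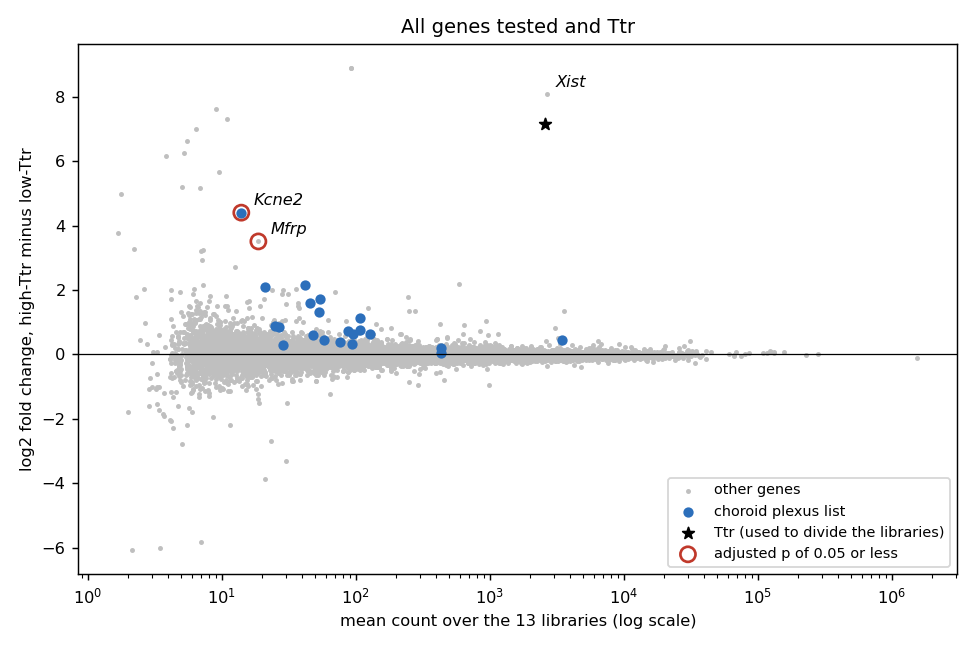
Fitted log2 fold change (high-Ttr minus low-Ttr libraries, genotype removed, vertical axis) against the mean count over the 13 libraries (log scale, horizontal axis), 1 point per gene. Kcne2 and Mfrp (red rings) passed an adjusted p of 0.05, most choroid plexus genes (blue) lie above 0, and Ttr (star) was used to divide the libraries. Xist, which follows sex, is high in 4 of the 8 high-Ttr libraries and was not called.

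Kcne2, Mfrp and Cldn2 had the smallest p values, and the bases before their RefSeq transcript starts are shown for that reason. The windows are at most 250 bases, 5′ to 3′ on the strand of the gene, from RefSeq on GRCm38.p6, and stop before the first annotated exon. They lie at chr16:92292139-92292388 on the plus strand (Kcne2), chr9:44101520-44101728 on the plus strand (Mfrp) and chrX:139800558-139800807 on the plus strand (Cldn2). Capitals mark a match to one of the 3 motifs searched on both strands.
Kcne2: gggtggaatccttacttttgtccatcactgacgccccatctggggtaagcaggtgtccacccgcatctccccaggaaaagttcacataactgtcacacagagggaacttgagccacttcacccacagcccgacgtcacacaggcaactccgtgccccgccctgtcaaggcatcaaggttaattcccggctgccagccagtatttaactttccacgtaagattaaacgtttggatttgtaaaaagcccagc
Mfrp: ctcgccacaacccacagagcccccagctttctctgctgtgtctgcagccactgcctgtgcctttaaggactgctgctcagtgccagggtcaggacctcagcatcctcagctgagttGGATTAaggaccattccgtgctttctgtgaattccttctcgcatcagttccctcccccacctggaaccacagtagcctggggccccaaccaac
Cldn2: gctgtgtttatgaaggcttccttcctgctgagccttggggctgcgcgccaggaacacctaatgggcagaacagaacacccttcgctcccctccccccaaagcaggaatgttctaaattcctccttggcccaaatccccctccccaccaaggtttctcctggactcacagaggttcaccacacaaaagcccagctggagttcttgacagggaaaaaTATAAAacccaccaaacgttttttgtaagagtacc
The first motif was TAATCC, a core word of OTX-type homeodomain factors, which reads GGATTA on the other strand. The second was GTAAACA, a word bound by forkhead factors, and the third was TATAAA, the word of the TATA box. Of 32851 windows of 250 bases, 6.25%, 3.17% and 12.4% hold them, and of the 27025 genes these windows belong to, 7.21%, 3.54% and 14.3% have a window that does. Of 17 genes with an entry, from the choroid plexus list and with Mfrp added after its values were seen, 3 had the first (Ace, Mfrp and Otx2), 1 the second (Prlr) and 5 the third (Ace, Cldn2, Kcnj13, Otx2 and Slc4a5). These matches describe the letters of the windows.

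Kcne2 encodes a small subunit of potassium channels in the apical membrane of the choroid plexus epithelium. In high-Ttr libraries it was between 0.374 and 1.41 CPM, with a median of 0.976. In low-Ttr libraries it was at 0.0392, 0.0834 and 0.0420 CPM in control replicates 2, 3 and 4, 0 in nlsYAP5SA replicate 4 and 0.0448 in C57BL/6 replicate 1. Every high-Ttr library was above every low-Ttr library, as for 21 genes of all tested (0.121%), while 11 genes (0.0636%) had the opposite order. The mean was 0.975 ± 0.399 CPM against 0.0419 ± 0.0296 CPM (SD, n = 8 and 5), and the fit gave 4.40 as log2 fold change (standard error, SE, 0.56, edgeR adjusted p = 0.0249). The low-Ttr libraries held 0 to 2 counts each, 5 in all against 177 in the high-Ttr libraries. Scaled to the library sizes, the ratio of these sums was 23.6, with an exact 95% interval of 9.94 to 73.7 that covers counting error only. Kcne2 lies on chromosome 16 from 92292389 to 92298129.

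Mfrp, on chromosome 9 from 44101729 to 44109187, encodes a frizzled-related membrane protein and was named after its values were seen. It was between 0.655 and 1.94 CPM in high-Ttr libraries, with a median of 1.09. The low-Ttr libraries had 0.0783, 0.125 and 0.126 CPM in control replicates 2, 3 and 4, 0.130 in nlsYAP5SA replicate 4 and 0.0448 in C57BL/6 replicate 1. The classes again did not overlap. Its mean was 1.29 ± 0.534 against 0.101 ± 0.0379 CPM (SD, n = 8 and 5), and its log2 fold change 3.51 (SE 0.45, edgeR adjusted p = 0.0249). Counts summed to 232 against 12, a scaled ratio of 12.9 (exact 95% interval 7.25 to 25.4). Mfrp shares its last exons with C1qtnf5, so the split of reads between them is uncertain. C1qtnf5 was at 6.92 ± 1.22 against 5.57 ± 0.411 CPM (SD, n = 8 and 5), with a log2 fold change of 0.22 that was not called.

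Leaving out 1 library often ended both calls. Neither was called without control replicate 1, 2, 3 or 4, nlsYAP5SA replicate 1 or 4, or C57BL/6 replicate 1 or 2 (adjusted p of 0.0505 to 0.202 with edgeR), and Mfrp was lost as well without control replicate 5, at 0.132. With 1 library left out, the log2 fold change was between 4.01 and 4.76 for Kcne2 and between 3.24 and 3.62 for Mfrp. Nor were they called with Y-linked expression (4 genes, summed) added as a covariate (adjusted p = 0.107 for both, edgeR) or among the 9 libraries with Y-linked expression alone (0.123 for both). There the log2 fold changes were 4.41 and 4.43 for Kcne2 and 3.46 and 3.42 for Mfrp.

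**Figure D2:**
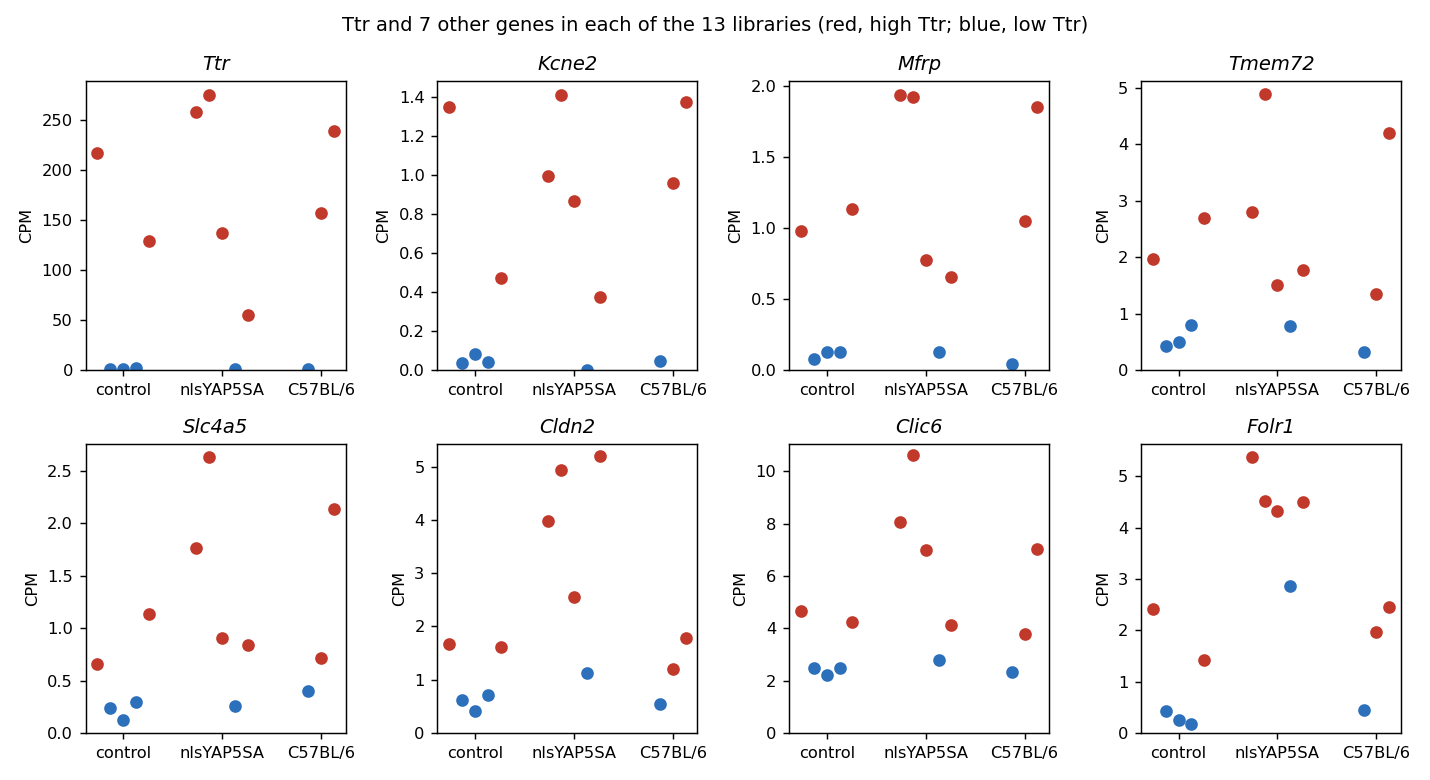
CPM (vertical axis, from 0) of Ttr, Kcne2, Mfrp and 5 further choroid plexus genes in each of the 13 libraries, by genotype and, within it, by replicate number. High-Ttr libraries (red) lie above low-Ttr libraries (blue) of the same genotype for all 8 genes. Folr1 in nlsYAP5SA replicate 4, at 2.87 CPM, overlaps the high-Ttr libraries of the other genotypes.

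Earlier results of these libraries had shown choroid plexus genes going with Ttr, so what follows describes the size and the evenness of that difference and is not independent evidence of its direction. Besides Ttr, the choroid plexus list held 21 genes, and all 21 passed the filter on low counts, Kcne2 and Slc4a5 through the high-Ttr libraries alone. All 21 had a higher fitted mean in high-Ttr libraries, where 48.8% of all genes did, with a median log2 fold change of 0.74. Of them, 1 was called (Kcne2), 15 had an unadjusted p of 0.05 or less (1.92% of all genes in that direction), and for 11 every high-Ttr library was above every low-Ttr library of its genotype (0.595%). In 7 genes the log2 fold change was 1 or more, in 7 it was between 0.5 and 1, and in 7 it was under 0.5. The 20 genes other than Kcne2 did not pass edgeR's test, while 6 of them were among the genes called by DESeq2's Wald test. Requiring at least 10 counts in every library removed Kcne2, Tmem72, Slc4a5, Folr1 and Calml4. Apart from Calml4, these had the largest log2 fold changes of the list in the main fit. The median of the remaining 16 genes was 0.62. Before adjustment, 10 of these 16 reached 0.05 with edgeR, and after it 0 were called. Within controls, 20 of the 21 had a higher mean in the high-Ttr libraries, with a median difference of 0.51 in log2(CPM + 0.5). This was 19 of 21 with a median of 0.73 in nlsYAP5SA mice, and 21 of 21 with a median of 0.68 in C57BL/6 mice.

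Among genes of ion and water transport, Slc4a5, a sodium bicarbonate cotransporter, was between 0.654 and 2.63 CPM (median 1.02) in high-Ttr libraries. In low-Ttr libraries it was at 0.235, 0.125 and 0.294 CPM in control replicates 2, 3 and 4, 0.261 in nlsYAP5SA replicate 4 and 0.404 in C57BL/6 replicate 1. The classes did not overlap, and the log2 fold change was 2.09 (SE 0.44). Clic6, of the chloride intracellular channel family, was between 3.78 and 10.6 CPM (median 5.82) against 2.47, 2.21, 2.48, 2.78 and 2.33 CPM in the low-Ttr libraries in the same order, again without overlap. Its log2 fold change was 1.13 (SE 0.24). For the water channel Aqp1, the values were 1.5 to 4.75 CPM (median 3.04) against 1.57, 1.42, 1.18, 1.04 and 0.942 CPM. Control replicate 2 overlapped the high-Ttr class here, through nlsYAP5SA replicate 5 at 1.5 CPM, while within each genotype there was no overlap, and the log2 fold change was 1.32 (SE 0.29). Smaller differences were seen for the potassium channel Kcnj13 (log2 fold change 0.87, SE 0.36), the carbonic anhydrase Car12 (0.65, SE 0.15) and the cation channel Trpv4 (0.28, SE 0.22), which was 0.61 without nlsYAP5SA replicate 4.

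Cldn2 encodes the claudin of the leaky tight junctions of this epithelium and had the third smallest p of all genes. It was between 1.20 and 5.20 CPM (median 2.17) in high-Ttr libraries. The low-Ttr libraries had 0.626, 0.417 and 0.714 CPM in control replicates 2, 3 and 4, 1.13 in nlsYAP5SA replicate 4 and 0.538 in C57BL/6 replicate 1. All high-Ttr libraries were above all low-Ttr libraries, by a narrow margin between nlsYAP5SA replicate 4 and C57BL/6 replicate 2. Its log2 fold change was 1.61 (SE 0.24), and it was not called (edgeR adjusted p = 0.0684). Tmem72, a membrane protein of this epithelium, was at 1.34 to 4.89 CPM (median 2.33) against 0.431, 0.50, 0.798, 0.783 and 0.314 CPM, without overlap, and had a log2 fold change of 2.16 (SE 0.41).

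Folr1, the folate receptor that loads folate into the cerebrospinal fluid, was between 1.42 and 5.38 CPM (median 3.40) in high-Ttr libraries. In low-Ttr libraries it was at 0.431, 0.250 and 0.168 CPM in control replicates 2, 3 and 4 and 0.448 in C57BL/6 replicate 1, but at 2.87 in nlsYAP5SA replicate 4. This last library overlapped the high-Ttr libraries of the other genotypes and was below the 4.33 to 5.38 CPM of the other nlsYAP5SA libraries. The log2 fold change was 1.72 (SE 0.32, edgeR adjusted p = 0.422). Without nlsYAP5SA replicate 4 it was 2.58, and Folr1 was called (adjusted p = 0.0135).

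Otx2, the homeodomain factor that specifies this epithelium, was at 2.76 to 5.03 CPM (median 3.64) against 2.74, 2.04, 3.19, 3.26 and 2.82 CPM, with overlap and a log2 fold change of 0.39 (SE 0.18). Kl, the co-receptor for fibroblast growth factor 23, had a log2 fold change of 0.77 (SE 0.25), and Prlr, the prolactin receptor, 0.33 (SE 0.22). Of the secreted proteins, Enpp2, which makes lysophosphatidic acid, was at 170 ± 35.5 against 123 ± 19.8 CPM (SD, n = 8 and 5), with overlap and a log2 fold change of 0.44 (SE 0.16). Sostdc1, an inhibitor of BMP and Wnt signalling, had 0.64 (SE 0.18), 1500015O10Rik, the gene of a secreted peptide precursor, 0.74 (SE 0.17), and F5, coagulation factor V, 0.61 (SE 0.29). Ace, the angiotensin-converting enzyme, had 0.21 (SE 0.11), and Wfikkn2, a secreted protease inhibitor, 0.45 (SE 0.31). Calml4, a calmodulin-like protein, had 0.84 (SE 0.29). Without nlsYAP5SA replicate 4 the log2 fold change of Ace was 0.07, that of Wfikkn2 0.16 and that of Enpp2 0.29. Without C57BL/6 replicate 1 that of F5 was 0.38, and without C57BL/6 replicate 3 that of Prlr was 0.20. Col8a1, a collagen, showed the smallest difference of the list, 0.03 (SE 0.16), at 8.84 to 36.9 CPM against 9.86 to 34.1 CPM. Its sign turned to -0.06 without C57BL/6 mice and to -0.01 with the Y-linked covariate, as well as without control replicate 5 or C57BL/6 replicate 1 or 3 (-0.06 to -0.04).

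Apart from Kcne2, the listed genes were all detected in low-Ttr libraries at 3 counts or more in each. Slc4a5 had the fewest after Kcne2, with 3 to 9. Summed over the 21 genes, the level was 198.6 to 380.9 CPM in high-Ttr and 160.9 to 201 CPM in low-Ttr libraries, so the sums overlapped, and Enpp2 took the largest share of them.

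**Figure D3:**
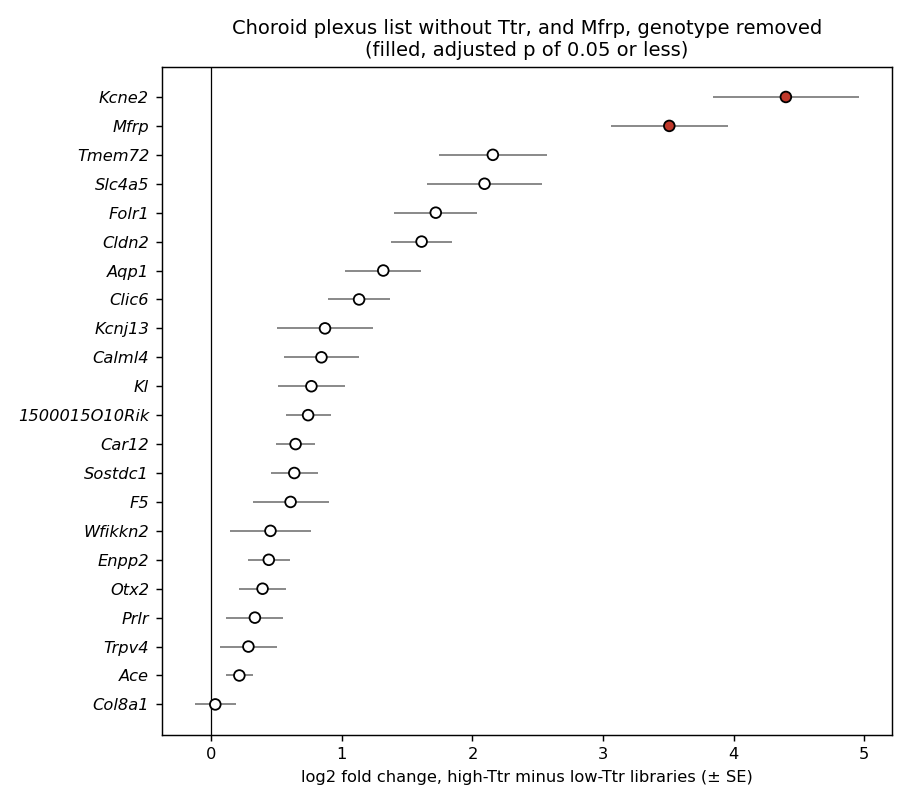
Fitted log2 fold change (horizontal axis, high-Ttr minus low-Ttr libraries, bars ± 1 standard error) of the 21 choroid plexus genes other than Ttr and of Mfrp, over 13 libraries with genotype as a covariate. The values run from 0.03 (Col8a1) to 4.40 (Kcne2), and the filled points, Kcne2 and Mfrp, passed an adjusted p of 0.05.

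The levels of these genes were set against that of Ttr by the number of Ttr counts per count of another gene. In the 8 high-Ttr libraries, Ttr counts per Kcne2 count were between 147 and 273, a 1.85-fold range, while Ttr itself ran from 54.0 to 278 in the units of the rule. For Aqp1 the range was 36.8 to 72.3 (1.96-fold) and for Mfrp 84.2 to 221 (2.63-fold). It was 3.48-fold for Clic6, 3.78-fold for Tmem72, 5.06-fold for Slc4a5, 7.92-fold for Folr1 and 12.7-fold for Cldn2. For Folr1 and Cldn2 the nlsYAP5SA libraries did not overlap the others in this ratio, which was not tested. There were 80.2 to 97.2 Ttr counts per Folr1 count in control and C57BL/6 libraries against 12.3 to 61.0 in nlsYAP5SA libraries, and 80.3 to 135 per Cldn2 count against 10.6 to 64.9. The lowest ratio of each of the 8 genes was that of nlsYAP5SA replicate 5, the high-Ttr library with the least Ttr. In low-Ttr libraries there were 15 to 51 Ttr counts per Kcne2 count in the 4 libraries with a count of Kcne2, on 1 or 2 counts each, and 0.525 to 1.82 per Aqp1 count.

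The low-Ttr library of the nlsYAP5SA genotype, replicate 4, was set beside the other 4 low-Ttr libraries gene by gene. Of the 21 genes, 9 were above all 4 others in it, 8 were within their range and 4 were below. The share over all genes was not counted, so these numbers are a description and no result about the list. Folr1, at 2.87 CPM against 0.168 to 0.448, and Col8a1, at 34.1 against 9.86 to 11.3, were the furthest above, and both were also high in the other nlsYAP5SA libraries. F5 was at 2.74 against 0.762 to 1.22 CPM, and Trpv4 at 1.87 against 0.672 to 0.940 CPM. Kcne2, Kl, Car12 and Enpp2 were below the others.

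Whether the difference between high-Ttr and low-Ttr libraries depended on genotype was tested as an interaction. With edgeR, 0 of 17890 genes were called and 478 (2.67%) reached 0.05 before adjustment, with 1 low-Ttr library each in nlsYAP5SA and C57BL/6 mice. DESeq2's likelihood ratio test called 16 of 17880 genes. None was on the choroid plexus list, which at so low a share over all genes says nothing about the list. With control and nlsYAP5SA libraries alone, edgeR called Gm28900, Mt1 and Sult1a1. In these tests the lone low-Ttr library of a genotype is assumed to vary like the other groups, so the calls cannot be told apart from a deviation of that library. Among the 21 choroid plexus genes, Folr1 alone had an unadjusted p of 0.05 or less in the main test, and its adjusted p was 1 (edgeR).

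The other lists describe what else a hemisphere could have held more or less of. None of their 246 tested genes was called in either direction, so they are given by counts and medians. Ciliated ependymal cells line the ventricles next to the choroid plexus. Of their 16 genes, 15 had a higher mean in high-Ttr libraries, with a median log2 fold change of 0.20 and 2 at an unadjusted p of 0.05 or less, Ak7 and Cfap126. The summed level was 48.6 to 80.0 CPM against 40.0 to 70.3 CPM, with overlap. The median was 0.10 without control replicate 1, with 12 genes higher and 0 at an unadjusted p of 0.05 or less (edgeR), and 0.32 without control replicate 2 or 5. Ak7, the adenylate kinase of cilia, with a log2 fold change of 0.42 that was 0.21 without control replicate 1, was at 1.70 to 4.25 CPM (median 3.69) against 2.43, 1.58, 1.43, 3.39 and 2.2 CPM. Foxj1, the master regulator of motile cilia, had a log2 fold change of 0.15 (SE 0.15).

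Hypothalamic genes formed the list with the next largest median. Of 19 genes, 16 passed the filter, and all 16 had a higher mean in high-Ttr libraries, with a median log2 fold change of 0.47, 5 at an unadjusted p of 0.05 or less (Pomc, Gal, Ghrh, Six6 and Nr5a1) and 1 (Ghrh) without overlap within each genotype. Ghrh, the releasing hormone for growth hormone, was at 0.202 to 0.614 CPM (median 0.293) against 0.313, 0.0834, 0.126, 0.217 and 0.0448 CPM, with a log2 fold change of 1.39 (SE 0.41, edgeR adjusted p = 0.990). Nr5a1, the factor of the ventromedial hypothalamus, had 1.66 (SE 0.55), with 0 to 6 counts in low-Ttr libraries, and Pomc, the precursor of melanocortins, 0.70 (SE 0.32). Ghrh and Nr5a1 had at most 8 and 6 counts in any low-Ttr library and passed the filter through the high-Ttr libraries, so a difference was built into their being tested. With at least 10 counts in every library, 7 hypothalamic genes were tested, with a median of 0.35 and 1 at an unadjusted p of 0.05 or less. Irs4, an insulin receptor substrate of hypothalamic neurons, was at 19.6 ± 3.19 against 14.1 ± 4.73 CPM (SD, n = 8 and 5). Summed levels overlapped, at 49.7 to 75.6 against 28.5 to 64.5 CPM, with the lowest values in control replicates 3 and 4. Without control replicate 1, the median was 0.23, with 10 of 13 genes higher and 0 at an unadjusted p of 0.05 or less (edgeR), and without control replicate 2 it was 0.65, with 9 at that p. Hmx2, Hmx3 and Npvf did not pass the filter.

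The thalamic, habenular, midbrain, hindbrain, cerebellar and pituitary lists had medians from 0.10 to 0.40, and the olfactory bulb list had a negative one. With replicate number as a further covariate, the habenular and midbrain medians turned to -0.07 and -0.04. Thalamic genes had a median of 0.10 (10 of 12 with a higher mean), with Rgs16 at 0.25 (SE 0.10), and the habenula 0.19 (4 of 6), with Pou4f1 at 0.65 (SE 0.24). Genes of midbrain dopamine neurons had 0.20 (7 of 7 tested), with Aldh1a1 at 0.35 (SE 0.17), which was 0.07 without nlsYAP5SA replicate 4. Without nlsYAP5SA replicate 4, the medians were 0.04 for the thalamus, 0.05 for the habenula and 0.04 for the midbrain genes, of which 4 then had a higher mean. The habenula was at 0.07 without control replicate 1, 0.09 without control replicate 4 and 0.34 without control replicate 5. The midbrain genes were at 0.10 without control replicate 4 or nlsYAP5SA replicate 3, 0.34 without control replicate 2 and 0.39 without control replicate 5. Hindbrain genes had 0.40 over the 4 of 13 that passed the filter, and 0.18 without control replicate 1. In all libraries, 4 Hox genes of that list were at 0. In Tph2, which makes serotonin, the log2 fold change was 0.42 (SE 0.23), and 0.21 without control replicate 1. Cerebellar genes had 0.24 over 7 of 10, with Ppp1r17 higher, and Fat2 and Car8 lower, at an unadjusted p of 0.05 or less, and Car8 at -0.23 (SE 0.08), or -0.10 without nlsYAP5SA replicate 4. Their median ranged from 0.11 without C57BL/6 replicate 1 to 0.44 without control replicate 4, and was 0.12 without control replicate 1, 0.13 without nlsYAP5SA replicate 2 and 0.15 without control replicate 2. Gabra6 and Pcp2, markers of cerebellar granule and Purkinje cells, were at no more than 0.117 and 0.378 CPM, and Atoh1 was at 0. The 5 olfactory bulb genes all had a lower mean, with a median of -0.42 and Eomes at -0.63 (SE 0.34). Eomes was at -1.16 without control replicate 1 and -0.40 without C57BL/6 replicate 1. Without nlsYAP5SA replicate 4 the median of this list was -0.07, with 4 lower, and without control replicate 1 it was -0.68, with all 5 at an unadjusted p of 0.05 or less. Of the pituitary genes, Tshb passed the filter, with 0.19 (SE 0.25), which was 0.38 without control replicate 1, 0.03 without control replicate 5 and 0.10 without nlsYAP5SA replicate 4.

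**Figure D4:**
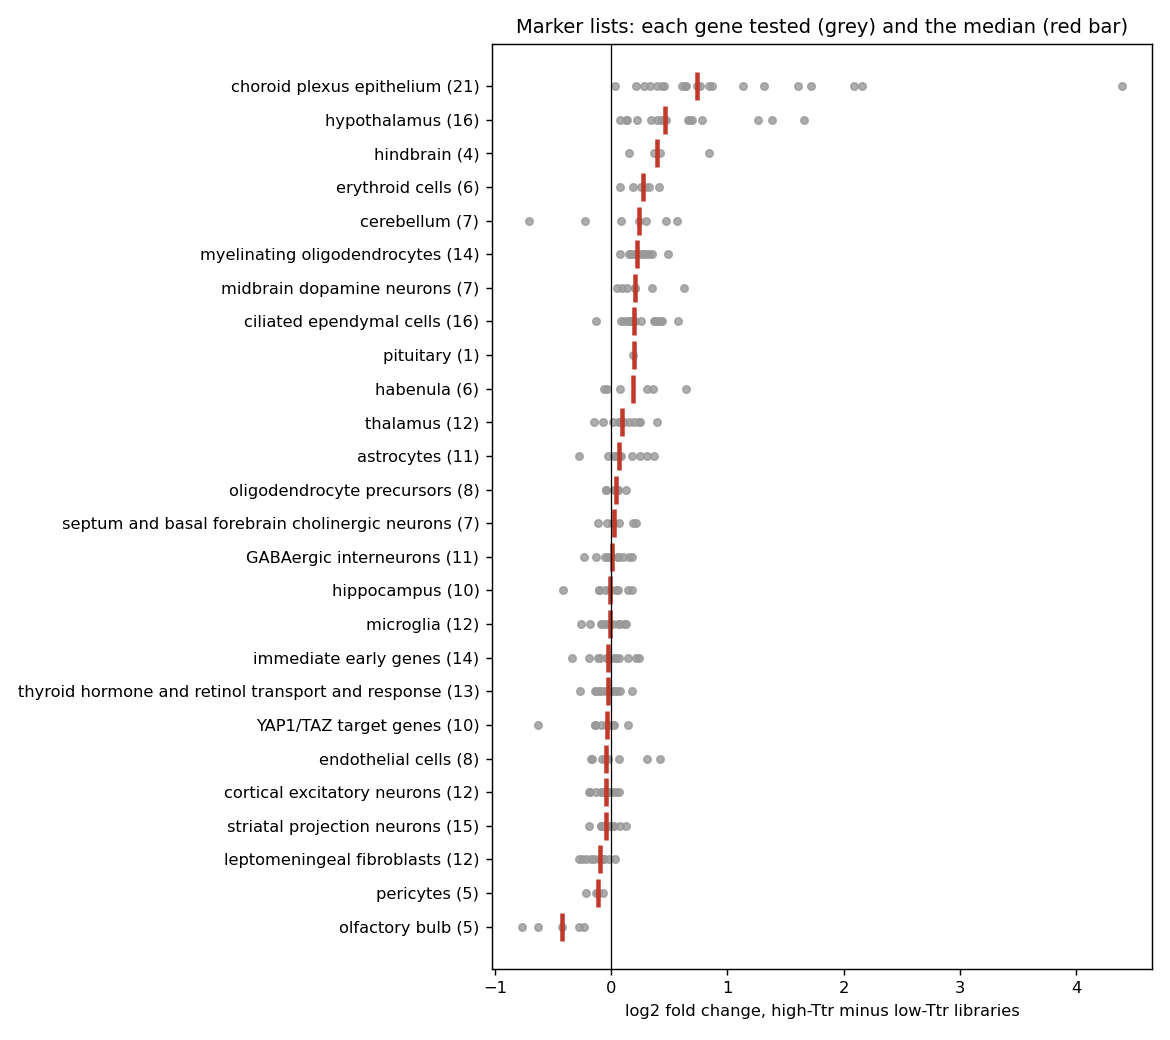
Log2 fold change (horizontal axis, high-Ttr minus low-Ttr libraries) of each gene tested in 26 lists (grey points, number tested in parentheses) with the list's median (red bar), Ttr and the Y-linked genes left out. The choroid plexus list has the largest median, 0.74, followed by the hypothalamus with 0.47, and the lists of cortical, striatal and interneuron genes lie within 0.05 of 0.

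Lists for neurons of the bulk of the hemisphere had medians within 0.05 of 0. The 12 genes of cortical excitatory neurons had a median of -0.05, and 9 of them had a lower mean. Neurod6, the gene whose locus drives NEX-Cre, was at -0.18 (SE 0.08), lower in every high-Ttr library than in every low-Ttr library of its genotype, as for 0.48% of all genes. It was at 91.5 and 92.3 CPM in high-Ttr against 93.9, 98.6 and 110 CPM in low-Ttr controls. The medians were -0.01 for hippocampal genes, with Fibcd1 at 0.15 (SE 0.06), -0.05 for striatal projection neurons, with Pde10a at -0.19 (SE 0.12), 0.03 for septal and basal forebrain cholinergic neurons, with Chat at 0.19 (SE 0.16), and 0.01 for GABAergic interneurons, with Dlx2 at -0.23 (SE 0.13). Fibcd1 was lower, at -0.09, without genotype as a covariate. Pde10a was at -0.09 without control replicate 1 and -0.12 without control replicate 3, Chat at 0.11 without control replicate 5, and Dlx2 at -0.37 without control replicate 1 and -0.07 without C57BL/6 replicate 1. With 1 library left out, the medians ran from -0.07 to 0.05 for hippocampal and from -0.09 to 0.01 for striatal genes. They ran from -0.05 to 0.07 for septal and basal forebrain and from -0.01 to 0.03 for interneuron genes. None of these lists had a settled sign.

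Glial and vascular lists had medians between -0.11 and 0.07, apart from myelin. All 14 genes of myelinating oligodendrocytes had a higher mean, with a median of 0.23, none at an unadjusted p of 0.05 or less, and Gjb1 at 0.32 (SE 0.19). The summed myelin level was 1882 to 5007 CPM in high-Ttr and 1469 to 3812 CPM in low-Ttr libraries. The myelin median was 0.36 without control replicate 1, with 6 genes at an unadjusted p of 0.05 or less, and 0.08 without nlsYAP5SA replicate 4, with 12 higher. Oligodendrocyte precursors had 0.04 (Sox10 at 0.13, SE 0.07), astrocytes 0.07 (Aldoc at 0.31, SE 0.13), and microglia -0.01 (P2ry13 at -0.18, SE 0.10). With library size alone as the scaling, the medians of the microglial and hippocampal lists were 0.003 and 0.006. The astrocyte median was 0.14 without control replicate 1, 0.04 without control replicate 2 or 5, and 0.01 without nlsYAP5SA replicate 4, with 6 of 11 genes higher. Leaving out nlsYAP5SA replicate 4 also moved Aldoc to 0.09, Gjb1 to 0.18, Sox10 to 0.05, P2ry13 to -0.10, Ly6c1 to 0.18, Rgs5 to -0.14 and Islr to -0.02. Endothelial genes had -0.04, with Ly6c1 at 0.42 (SE 0.14), and all 5 pericyte genes had a lower mean, with a median of -0.11 and Rgs5 at -0.21 (SE 0.11). Leptomeningeal fibroblasts, which cover the brain and also lie in the choroid plexus stroma, had a lower mean in 11 of 12 genes, a median of -0.09 and Islr at -0.22 (SE 0.12). This median was -0.04 without control replicate 1, -0.06 without control replicate 4 and -0.16 without control replicate 5. The 6 erythroid genes all had a higher mean, with a median of 0.27 and Hba-a2 at 0.41 (SE 0.20), and alpha-globin reads can be split between near-identical copies. Control replicate 1 had the largest erythroid sum, 595.9 CPM, and without it the median was 0.03, with 4 genes higher and Hba-a2 at 0.19.

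Genes of the pathways that transthyretin serves had medians near 0. The 13 genes of thyroid hormone and retinol transport and response had a median of -0.03, with Crabp2, a retinoic acid binding protein, at -0.27 (SE 0.15) and none at an unadjusted p of 0.05 or less. The retinol carrier Rbp4 was at 5.09 ± 0.985 against 5.75 ± 1.23 CPM (SD, n = 8 and 5). Immediate early genes, which follow neuronal activity and handling, had -0.02, with Npas4 at -0.34 (SE 0.19). Their median was 0.07 without control replicate 1 (11 of 14 higher, 3 at an unadjusted p of 0.05 or less), 0.06 without control replicate 4 (10 higher, 2 at that p), and -0.11 without control replicate 5. Npas4 was at -0.21 without nlsYAP5SA replicate 4. The 10 YAP1/TAZ target genes had -0.04, with Ctgf at 0.15 (SE 0.08), or 0.04 without nlsYAP5SA replicate 4 and 0.22 without C57BL/6 replicate 1, and Yap1 itself 0.00 (SE 0.06), at 19.4 to 26.6 CPM over the 13 libraries. The 4 Y-linked genes had a median of -0.89, with Kdm5d at -0.94 (SE 0.92). This median was -1.69 without nlsYAP5SA replicate 3, -1.41 without C57BL/6 replicate 3 and -0.37 without nlsYAP5SA replicate 4.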

How the data were processed

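Messenger RNA of 13 right hemispheres from mice at postnatal day 11 was sequenced with poly(A)-selected libraries. The authors trimmed reads with CutAdapt 1.5, aligned them with STAR (2.2.2a in the submitters' processing notes) to GRCm38 and deposited RSEM 1.3.0 estimated counts per gene. Whether counting used strand is not given in the sources used here. The table held 48795 genes, 48349 of them with a name, and the 446 without one took 0.0649% of the counts.

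Here, the expected counts were rounded to whole numbers, since 12.4% to 13.3% of the values were not whole. Genes were filtered with filterByExpr on the design, and libraries were scaled with TMM. The test was edgeR 4.0.16's quasi-likelihood test (two-sided, R 4.3.3) with genotype and Ttr class as terms. Ttr itself was left out of the adjustment over all genes. Genotype by Ttr class was tested as an interaction. DESeq2 1.42.0 was an alternative. The fit was tested on simulated data. Control and nlsYAP5SA mice came from 2 matings, so animals of a genotype share parents, but which ones is not given and mating could not be a term of the fit; p-values measure the spread between these samples.

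The members, limits and gene lists were chosen with earlier results of these data known. Genes were named by rule: up to 10 called genes in each direction that averaged 50 or more counts and separated the classes in each genotype, every choroid plexus gene, and up to 3 called genes of each other list, or else the 1 with the smallest p, and Yap1. No gene met the first part. Other genes named, Mfrp among them, were chosen after their values were seen or as list members.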

Additional observations from a re-analysis of the deposited data

Results flagged for a closer look

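A set was the 8 high-Ttr or the 5 low-Ttr libraries for 1 gene. Of 98 sets, 9 had a highest or lowest value far from the others by Dixon's criterion, which chance meets in about 1 in 20 sets of like libraries. Of these, 7 were values of nlsYAP5SA replicate 4 among low-Ttr libraries. They were Folr1 at 2.87 CPM (others 0.168 to 0.448), Col8a1 at 34.1 (9.86 to 11.3), Trpv4 at 1.87 (0.672 to 0.940), F5 at 2.74 (0.762 to 1.22), Islr at 19.9 (10.9 to 13.1) and, as the low ones, Fibcd1 at 15.1 (26.8 to 30.3) and Rgs5 at 183 (226 to 243). This library is the only nlsYAP5SA library of the low-Ttr class, so genotype and library cannot be told apart within these sets. The sets pool the genotypes, so a gene that differs by genotype can be flagged here and the 1 in 20 does not hold. Folr1 and Col8a1 were also high in the other nlsYAP5SA libraries. Kcnj13 was at 1.26 CPM in control replicate 4 against 0.493 to 0.609 in the other low-Ttr libraries. Eomes was at 3.68 CPM in control replicate 1 against 1.01 to 2.21 in the other high-Ttr libraries.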

How the results depend on the processing

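The 2 calls, and the 1 among choroid plexus genes, stayed with DESeq2 size factors, library size alone, no genotype covariate, a continuous Ttr level and, chosen after seeing the data, the share of CT010467.1 as a covariate. Without a filter on low counts there were 7 calls, 5 higher and 2 lower (4 choroid plexus genes, all higher). With DESeq2's Wald test there were 13, 12 higher and 1 lower (7 choroid plexus genes, all higher). There were 0 and 0 with at least 10 counts in every library, which Kcne2 and Mfrp do not reach, with control and nlsYAP5SA or control and C57BL/6 libraries only, with the Y-linked level as covariate and, chosen after seeing the data, in the 9 libraries with Y-linked expression. The cause was not tested. Leaving out 1 library gave 0 to 3 calls, 0 to 2 of them choroid plexus genes. The replicate block gave 0 and 0 (edgeR adjusted p of 0.22 for Kcne2 and 0.897 for Mfrp). The deviations of same-numbered libraries had correlations of -0.302 to 0.474 (median -0.02), against -0.539 to 0.48 (median 0.0105) for differently numbered ones. The labels do not say whether the numbers pair the samples, and these few correlations cannot decide it. Under the block the medians of the midbrain and habenula lists turned to -0.038 and -0.074, and without genotype as a covariate the medians of the midbrain, myelin, microglial and YAP1/TAZ target lists were -0.001, 0.073, 0.199 and 0.49 (10 of 10 targets higher). The median of the choroid plexus list was 0.60 to 0.93 over all settings. The interaction gave 16 calls with DESeq2's likelihood ratio test and 3 with control and nlsYAP5SA libraries only. Signs turned for Col8a1 at -0.06 (control and nlsYAP5SA), -0.012 (Y-linked covariate), -0.042 (libraries with Y-linked expression) and, over the range, between -0.059 and 0.118 when 1 library was left out, for Fibcd1 at -0.092 (no genotype covariate), for Chat, Tshb and Yap1 at -0.033, -0.145 and -0.02 under the block, and for Yap1 between -0.035 and 0.039 when 1 library was left out. Over all named genes and settings, 1212 values kept direction and side of the threshold, 27 lost a call, 11 gained one and 12 turned sign. Of the named genes only Kcne2 and Mfrp were called in the main fit, so keeping the side mostly means staying uncalled. Low-Ttr libraries held 0 to 2 counts of Kcne2 and 1 to 3 of Mfrp, so depth limits these folds.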

Other observations

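Genes of the cell cycle, grouped after their values were seen and therefore given without a test, had a lower mean in high-Ttr libraries in 34 of 34 cases, with a median log2 fold change of -0.35. Their summed level was 218 to 297 CPM (median 244) in high-Ttr and 266 to 398 CPM (median 281) in low-Ttr libraries, with overlap. Without nlsYAP5SA replicate 4 the median was -0.11 and 8 of the 34 genes had a higher mean, and with control and C57BL/6 libraries only the values were likewise -0.11 and 8. Without control replicate 1 the median was -0.45.

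Among genes that averaged 50 counts or more, 16 did not overlap between the classes over all 13 libraries, 9 higher and 7 lower in high-Ttr libraries. Without this limit on counts it was 21 higher (0.121%) and 11 lower (0.0636%) of the 17301 genes tested, so the names are a description. Besides Clic6, the higher ones were Gabre, a GABA receptor subunit, at a log2 fold change of 0.70, the imprinted Dlk1 at 0.63, Arhgap36 at 0.44, Thnsl2 at 0.42, Acacb at 0.39, Zfp959 at 0.28, Galnt16 at 0.22 and the anion exchanger Slc4a2 at 0.17. The lower ones were Dkk2, a Wnt antagonist, at -0.45, Bcl6b at -0.19, Synpr at -0.16, Nras and Srpk1 at -0.15, and Wwc1 and Stau2 at -0.09. With edgeR, none of these 16 was called.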
